A study of Homo sapiens with 9 samples.

Results

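The structural and regulatory subunits of the oxidative phosphorylation complexes were followed in the breast cancer line MDA-MB-468 (an established human line of epithelial origin), with or without short hairpins against LMO2. Members were taken by symbol: the NDUF, SDH, UQCR, COX4 to COX8 and ATP5 families and the protein genes of mitochondrial DNA. Of 56809 rows of the count table, 155 matched. They comprised 86 nuclear-encoded protein-coding genes, 13 mitochondria-encoded genes and 56 pseudogene rows, and the nuclear and mitochondrial genes are described apart. All cells had been infected with a pSicoR plasmid. The control carried the empty plasmid, and the other groups carried shLMO2-1 or shLMO2-2, each with 3 libraries of polyadenylated RNA from 200000 harvested cells. No other treatment, time or clone is named in the labels, and nothing in them says that the 3 libraries of a group came from separate cultures, so p-values measure the spread between these samples, which may be technical.

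Oxidative phosphorylation uses electrons from NADH and succinate to pump protons across the inner mitochondrial membrane and uses the resulting gradient to make ATP. Complex I (the NDUF and MT-ND proteins) oxidises NADH, complex II (SDHA to SDHD) oxidises succinate, complex III (UQCR and MT-CYB) passes electrons to cytochrome c, complex IV (COX and MT-CO) passes them to oxygen, and complex V (ATP5, MT-ATP6 and MT-ATP8) is the ATP synthase. Every complex except complex II combines proteins made from nuclear genes with proteins made inside the organelle, so both genomes have to supply matching parts. In epithelial tumour cells the chain also serves nucleotide synthesis by regenerating oxidised cofactors.

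The libraries held 15494486 to 23069456 counts. LMO2 was scarce in every library, with 4, 35 and 19 counts in the controls, 2, 1 and 6 with shLMO2-1 and 1, 4 and 3 with shLMO2-2. The lowest control overlapped shLMO2-1, and the log2 fold changes were -2.44 (adjusted p = 0.0907 with edgeR) and -3.02 (adjusted p = 0.0441). Epithelial markers fitted the labelled line: EPCAM lay between 369 and 437 CPM (each count scaled to its library total as adjusted by edgeR's TMM method), and KRT5 between 2483 and 3642 CPM. The leukocyte markers CD3E and LYZ and the muscle marker MYH7 had no count in any library, and PTPRC did not exceed 0.348 CPM. Not every marker of other cells was absent. The fibroblast marker COL1A1 lay between 9.48 and 17.1 CPM, while COL1A2 and DCN did not exceed 0.0449 and 0.232 CPM. The endothelial marker CDH5 lay between 0.793 and 2.61 CPM, and the muscle marker TNNT2 reached 0.731 CPM. ESR1, expected to be low or absent in this line, lay between 2.47 and 6.10 CPM. Within a group, libraries differed by far more than counting error, with a chi-square per gene of 4.79 to 25.2, and none was treated as a repeat of another.

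Of the 86 nuclear-encoded genes, 78 passed the filter on low counts, and each of these had at least 165 counts in every library. The 8 others were ATP5MGL, UQCRHL, COX4I2, COX6A2, COX6B2, COX7A1, COX7B2 and COX8C. ATP5MGL, COX4I2 and COX7A1 had no count in any of the 9 libraries, which allows a level of up to 0.13 to 0.194 CPM per library (3 counts, counting error only). COX6A2 and COX8C had 1 count in all libraries together, COX7B2 had 4 and COX6B2 had 9. These are the alternative forms of cytochrome c oxidase subunits known from muscle, lung or testis. Their widely expressed partners were all measured: control levels were 269 ± 39.9 CPM for COX4I1, 142 ± 19.5 for COX6A1, 51.5 ± 5.31 for COX6B1, 91.8 ± 9.34 for COX7A2, 82.3 ± 1.17 for COX7B and 176 ± 25.6 for COX8A (mean ± SD, n = 3). None of these 6 partners passed against control with either hairpin in the main edgeR fit (all libraries, low counts filtered, no replicate block). With shLMO2-2, COX4I1 was called by DESeq2 and by edgeR without control replicate 2. No filter on low counts gave COX4I1 and COX8A there, and the replicate block gave COX4I1, COX7B and COX8A. Log2 fold changes of the 6 partners ran from -0.02 for COX7B to 0.18 for COX4I1 with shLMO2-1, and from 0.05 for COX7A2 to 0.35 for COX4I1 with shLMO2-2.

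Levels of the tested nuclear subunits differed widely once divided by transcript length. On the scale of CPM per kilobase of the median transcript, the highest control levels belonged to NDUFS5, a complex I subunit of the intermembrane space side, at 650 ± 41.6 (SD, n = 3), UQCRH, the hinge protein of complex III, at 423 ± 43.1, COX8A at 348 ± 50.5, ATP5F1B, the catalytic beta subunit of the ATP synthase, at 342 ± 33.5, and COX4I1 at 339 ± 50.3. Taking neighbours as apart where their ranges of mean ± SD did not overlap, NDUFS5 stood apart from UQCRH, and the ranges of each pair of neighbours among the next 4 overlapped. The lowest were NDUFS4 at 18.8 ± 2.54, ATP5S at 12 ± 2.93, NDUFA9 at 10.3 ± 1.74, NDUFV3 at 10.1 ± 0.889 and NDUFA5 at 9.5 ± 0.161. NDUFS4 stood apart from ATP5S by the same rule, and neighbours among the 4 below it overlapped. The median nuclear subunit of complex I had 53.3 CPM per kilobase in the controls, against 175 in complex II, 63.1 in complex III, 186 in complex IV and 151 in complex V. Subunits that stand in equal numbers in a complex were thus far from equal in their RNA per length, and the lengths used are annotation values and not measured isoforms.

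The first comparison asked which subunits differed between each hairpin and the empty plasmid. With shLMO2-2, 14 of the 78 nuclear subunits rose and 1 fell (edgeR quasi-likelihood test, Benjamini-Hochberg adjusted p under 0.05 over all 14709 genes tested), where 8.97% of all genes passed, 4.94% higher and 4.04% lower. With shLMO2-1, 2 rose and none fell, where 8.42% of all genes passed, 4.54% higher and 3.88% lower. Fewer cells with a transcript and less RNA per cell cannot be told apart in such bulk samples. Both of the subunits that rose with shLMO2-1, COX6C and ATP5MPL, also rose with shLMO2-2, and the control libraries are shared by both comparisons. The median log2 fold change of the 78 subunits was 0.05 with shLMO2-1 and 0.21 with shLMO2-2, against 0.00 over all genes in both. Leaving out 1 library each moved these medians between -0.02 (without control replicate 1) and 0.13 (without control replicate 2) for shLMO2-1, with 35 to 60 positive estimates, and between 0.14 and 0.28 (without the same libraries) for shLMO2-2, with 59 to 75. With shLMO2-2, 73 of the 78 estimates were positive, and in 40 of them all 3 hairpin libraries lay above all 3 controls, where 15.3% of all genes did so and 29.9% were separated in either direction. With shLMO2-1, 48 estimates were positive and 6 subunits were separated in this way, where 14% of all genes were. Set against the mean of both hairpins, 7 nuclear subunits rose and 1 fell, where 12.4% of all genes passed, 6.47% higher and 5.93% lower. All 6 hairpin libraries lay above all 3 controls in 6 subunits and below them in 1, where 8.12% and 8.6% of all genes did so. Single libraries decided much of the shLMO2-2 count: 8 subunits passed without control replicate 1, 3 without control replicate 3, 7 without shLMO2-1 replicate 2, 8 without shLMO2-2 replicate 1, 2 without shLMO2-2 replicate 2 and 3 without shLMO2-2 replicate 3. For the mean of both hairpins, 5 passed without control replicate 1, 16 without control replicate 2, 4 without control replicate 3, 5 without shLMO2-1 replicate 3 and 5 without shLMO2-2 replicate 3. The shLMO2-1 count of 2 became 0 without control replicate 3 or shLMO2-1 replicate 3, and 1 when control replicate 2, replicate 1 or 2 of shLMO2-1, or replicate 2 of shLMO2-2 was left out. Fewer genes of all tested passed in each fit whose count of subunits is given here, also where the mean count of subunits was 16. Without control replicate 1, however, more genes passed with shLMO2-1: 749 higher and 648 lower, against 668 and 571 with all libraries. With shLMO2-2, 726 genes were higher and 594 lower with all libraries. These became 332 and 308 without control replicate 3. Without shLMO2-2 replicate 2 they were 263 and 231, and without shLMO2-2 replicate 3 they were 271 and 243.

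**Figure D1:**
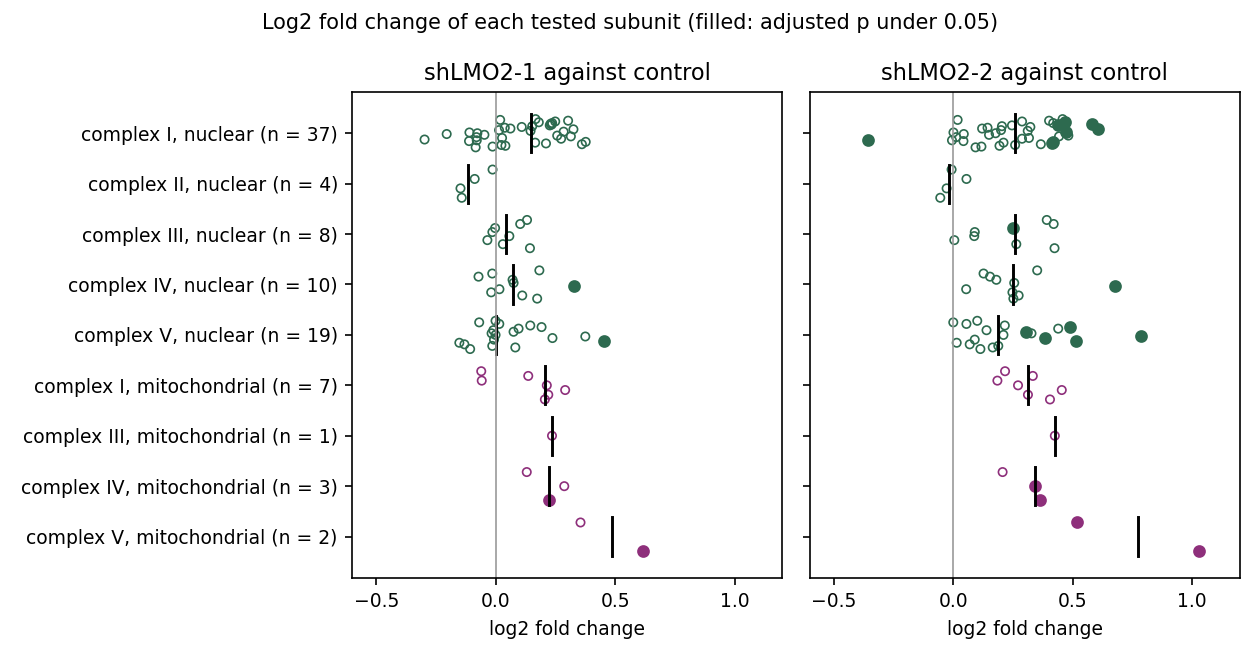
Log2 fold change (x axis) of each tested subunit against control, one point per gene, with complexes as rows. Filled points passed an adjusted p of 0.05, and black bars are the medians of a row. With shLMO2-2 the nuclear rows of complexes I, III, IV and V have medians between 0.19 and 0.26, and complex II has -0.02.

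COX6C had the smallest adjusted p of the nuclear subunits. It encodes a small membrane subunit of cytochrome c oxidase. Its level was 65.7, 57.0 and 57.2 CPM in the controls, 73.0, 72.7 and 80.1 CPM with shLMO2-1, and 90.5, 96.6 and 100.5 CPM with shLMO2-2. The 3 groups did not overlap, and every hairpin library was above every control. The log2 fold change was 0.33 ± 0.08 (SE, adjusted p = 0.0282) with shLMO2-1 and 0.68 ± 0.08 (adjusted p = 0.000733) with shLMO2-2. Set against each other, the hairpins differed by 0.35 ± 0.08, which missed the threshold (adjusted p = 0.0798 with edgeR), although DESeq2 called it. The shLMO2-2 and mean results held in every alternative run, while the shLMO2-1 call was lost in 6 of the 9 fits that each left out 1 library. The other 9 tested nuclear subunits of complex IV did not pass in the main edgeR fit in any comparison with control. With shLMO2-2, COX4I1, COX7C and COX8A were called with no filter on low counts, and with the replicate block COX7B as well. COX7A2 had group means of 91.8, 92.9 and 95.4 CPM.

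In all, 3 rows of the ATP synthase rose in the mean of both hairpins, and all of them are small proteins. ATP5MPL, a proteolipid of the membrane part, lay at 33.0, 40.1 and 34.9 CPM in the controls, 45.7, 45.8 and 56.4 CPM with shLMO2-1 and 49.8, 51.6 and 52.9 CPM with shLMO2-2. All 6 hairpin libraries were above the 3 controls, and the hairpin groups overlapped each other. Its log2 fold change was 0.45 ± 0.10 (adjusted p = 0.0218) with shLMO2-1 and 0.51 ± 0.10 (adjusted p = 0.0119) with shLMO2-2. ATP5ME, the membrane subunit e that takes part in joining synthase dimers, had 9.57, 12.3 and 11.0 CPM in the controls, 14.1, 11.5 and 17.1 CPM with shLMO2-1 and 18.3, 18.8 and 19.6 CPM with shLMO2-2. Here shLMO2-2 was clear of the controls (0.78 ± 0.15, adjusted p = 0.00904), while shLMO2-1 overlapped them (0.38 ± 0.15, adjusted p = 0.15). ATP5F1E, the epsilon subunit of the central stalk, had 47.7, 56.1 and 51.0 CPM in the controls, 52.7, 56.7 and 67.7 CPM with shLMO2-1 and 65.4, 73.1 and 79.0 CPM with shLMO2-2. It too passed with shLMO2-2 (0.49 ± 0.11, adjusted p = 0.0187) and not with shLMO2-1 (0.19 ± 0.11, adjusted p = 0.307). ATP5MC2, an isoform of the rotor ring subunit, and ATP5MF, a small membrane subunit, passed with shLMO2-2 at 0.30 ± 0.07 (adjusted p = 0.0284) and 0.38 ± 0.11 (adjusted p = 0.0458). The catalytic head did not follow: ATP5F1A, the alpha subunit, had log2 fold changes of 0.00 and 0.10 with shLMO2-1 and shLMO2-2, and ATP5F1B had -0.07 and 0.00. ATP5IF1, the inhibitor that blocks ATP hydrolysis by the synthase, lay at 28.3, 33.2 and 32.2 CPM in the controls, 30.1, 28.2 and 42.1 CPM with shLMO2-1 and 42.8, 41.5 and 42.9 CPM with shLMO2-2. Its shLMO2-2 value of 0.44 ± 0.13 did not pass (adjusted p = 0.0649), although limma-voom and DESeq2 called it.

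Of the 37 nuclear subunits of complex I, 7 rose and 1 fell with shLMO2-2, and none passed with shLMO2-1, where 9 had an unadjusted p under 0.05 and DESeq2 called 2. In the mean of both hairpins NDUFB1, NDUFA4 and NDUFS4 rose and NDUFS1 fell. NDUFB1, a small accessory subunit of the membrane arm, lay at 11.7, 13 and 11.4 CPM in the controls, 13.4, 14 and 17.8 CPM with shLMO2-1 and 18.1, 18.7 and 18.1 CPM with shLMO2-2. Each group was clear of the others, with 0.33 ± 0.12 (adjusted p = 0.132) for shLMO2-1 and 0.61 ± 0.12 (adjusted p = 0.0124) for shLMO2-2. NDUFA4, counted here with complex I by its symbol and also known as a part of complex IV, lay at 102, 128 and 111 CPM in the controls, 129, 126 and 146 CPM with shLMO2-1 and 145, 148 and 168 CPM with shLMO2-2. Only shLMO2-2 was clear of the controls (0.44 ± 0.10, adjusted p = 0.0199). NDUFS4, an accessory subunit needed for a stable NADH-binding module, had 11.0, 12.8 and 14.4 CPM in the controls, 16.8, 15.2 and 17.5 CPM with shLMO2-1 and 16.6, 17.2 and 17.1 CPM with shLMO2-2. All 6 hairpin libraries were above the controls, with 0.38 ± 0.12 (adjusted p = 0.0702) for shLMO2-1 and 0.42 ± 0.11 (adjusted p = 0.0461) for shLMO2-2. NDUFA3, NDUFA13, NDUFB2 and NDUFS6, all accessory subunits, passed with shLMO2-2 alone, at 0.58, 0.47, 0.47 and 0.41.

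NDUFS1 moved the other way. It encodes the largest iron-sulphur subunit of the complex I core. Its level was 142, 122 and 123 CPM in the controls, 114, 103 and 98.0 CPM with shLMO2-1 and 108, 96.7 and 97.6 CPM with shLMO2-2. Every hairpin library was below every control. The log2 fold change was -0.30 ± 0.08 (adjusted p = 0.0534) with shLMO2-1, -0.36 ± 0.08 (adjusted p = 0.0264) with shLMO2-2 and -0.33 ± 0.07 (adjusted p = 0.015) for their mean, and the mean result kept its call in all 19 alternatives. It was the only one of the 78 nuclear subunits to fall in this fit. With length and GC trends removed, NDUFS3 and SDHC fell with shLMO2-1, SDHC beside NDUFS1 with shLMO2-2, and NDUFS3, SDHC and SDHD beside NDUFS1 in the mean, where 7 rose and 4 fell. With 2394 nt NDUFS1 is among the longer transcripts of the family. Of the 7 nuclear-encoded core subunits of complex I, which carry the flavin and the iron-sulphur clusters, none rose in the main edgeR fit in any comparison with control. Of all genes 4.54% to 6.47% did, and 7 genes are too few to read the lack of calls as a difference. NDUFS7 was called higher by DESeq2 in the mean of both hairpins, and also with no filter on low counts and without control replicate 2. NDUFS8 was called higher with shLMO2-2 when no filter on low counts was used. The median log2 fold change with shLMO2-2 was 0.12 over these 7 and 0.30 over the 30 accessory subunits, of which 7 rose, and the difference between them was not tested.

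**Figure D2:**
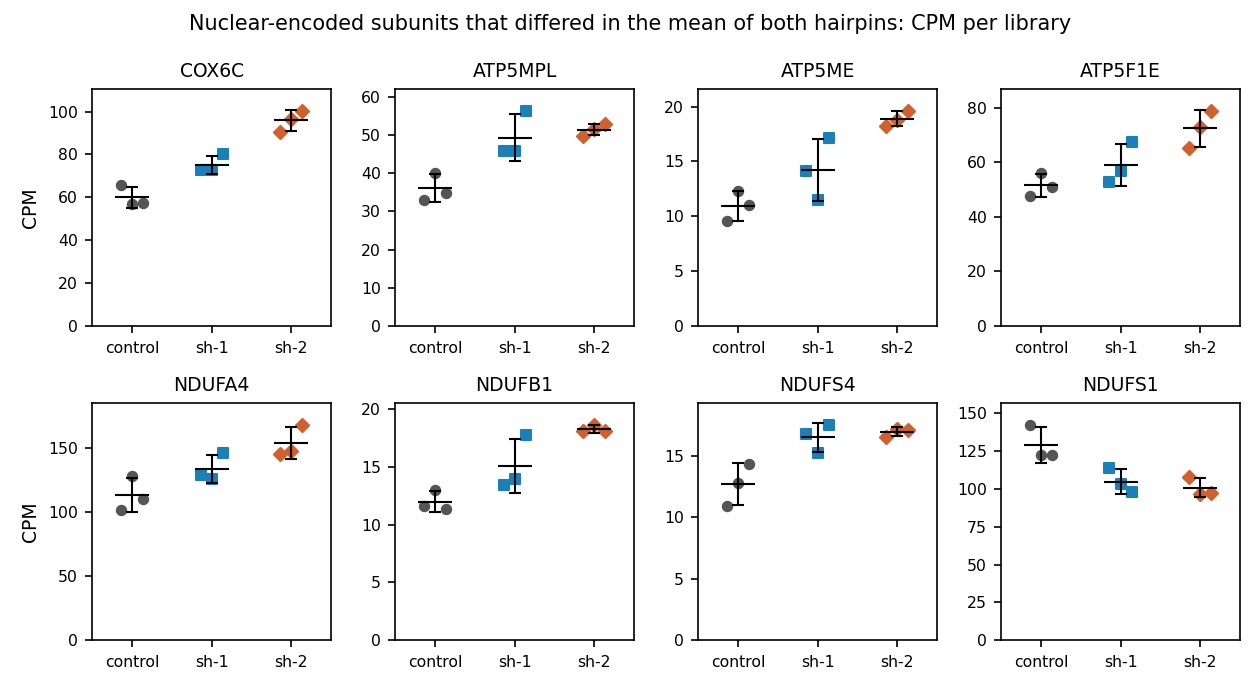
CPM (y axis, from 0) of the 8 nuclear-encoded subunits that passed in the mean of both hairpins, by group (x axis; sh-1 and sh-2 are the hairpins), one point per library, with mean and SD of 3 libraries. COX6C and NDUFB1 show 3 separate groups, and NDUFS1 lies at 142, 122 and 123 CPM in the controls and at 114 CPM or lower in all 6 hairpin libraries.

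Complex II, which has no mitochondria-encoded part and also belongs to the tricarboxylic acid cycle, showed no call in any comparison with edgeR, limma-voom or DESeq2 on the counts as deposited, and none of its 4 subunits had an unadjusted p under 0.05. With trends in transcript length and GC content removed, an alternative chosen after seeing the data, SDHC was called lower with shLMO2-1 (-0.25, adjusted p = 0.0403), shLMO2-2 (-0.25, adjusted p = 0.0396) and in their mean (-0.25, adjusted p = 0.016), and SDHD in the mean (-0.15, adjusted p = 0.0427). SDHA, the flavoprotein, lay at 282 ± 9.94 CPM in the controls, 279 ± 1.77 with shLMO2-1 and 281 ± 8.47 with shLMO2-2 (SD, n = 3). SDHB, the iron-sulphur subunit, had 86.9 ± 7.33, 81.8 ± 1.88 and 90.3 ± 10.2 CPM in the same order. The membrane anchors had 129 ± 12.1, 117 ± 10.2 and 127 ± 8.32 CPM for SDHC, and 186 ± 14, 169 ± 9.67 and 179.6 ± 8.97 CPM for SDHD. The groups overlapped for all 4. The median log2 fold change of complex II was -0.12 with shLMO2-1 and -0.02 with shLMO2-2, below those of the nuclear subunits of every other complex in both comparisons, a difference that was not tested. In complex III, UQCRB, a small subunit at the ubiquinone-binding side, was the only nuclear subunit to pass in the main edgeR fit, and DESeq2 also called UQCRQ with shLMO2-2. In the same comparison edgeR with the replicate block also called UQCR10, UQCR11, UQCRH and UQCRQ. With no filter on low counts it called UQCR10, UQCR11, UQCRH and UQCRQ but not UQCRB. UQCRB had 41.7, 40.1 and 38.5 CPM in the controls, 39.7, 39.8 and 40.7 CPM with shLMO2-1 and 46.0, 48.2 and 49.1 CPM with shLMO2-2. The shLMO2-2 libraries were clear of both other groups, and the log2 fold change against control was 0.25 ± 0.07 (adjusted p = 0.0419). Its call was lost in 12 of the 20 alternatives. The large core proteins UQCRC1 and UQCRC2 had 0.09 each with shLMO2-2 and did not pass.

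The second comparison set the hairpins against each other. No nuclear subunit passed in the main edgeR fit, where 0.768% of all genes did, and 15 of 78 had an unadjusted p under 0.05. limma-voom also called none, and DESeq2 called COX6C alone. By estimate, 77 of the 78 nuclear subunits were higher with shLMO2-2 than with shLMO2-1, with a median log2 difference of 0.16, and in 14 of them the libraries did not overlap, where 8.98% of all genes were separated upward and 9.13% downward. Subunits that passed with shLMO2-2 and not with shLMO2-1, such as ATP5ME (0.41 ± 0.14, adjusted p = 0.32) and NDUFA3 (0.35 ± 0.16, adjusted p = 0.468), were therefore not shown to differ between the hairpins.

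Fold changes followed transcript length and GC content over the whole table, and control replicate 1 stood apart in both. Its rho over genes between the deviation from each gene's mean and length was 0.29, and with GC content -0.37, the largest of the 9 libraries in size for each. Each library's median deviation over the 78 subunits, on the log2 scale from each gene's mean of 9 libraries, was -0.26, 0.04 and -0.07 in the controls, -0.10, -0.08 and 0.11 with shLMO2-1, and 0.09, 0.07 and 0.22 with shLMO2-2. For the 1925 tested genes with transcripts under 1000 nt that are not members, the same medians were -0.14, 0.03 and -0.03, then -0.05, -0.02 and 0.08, then 0.06, 0.05 and 0.13. The libraries that were high or low for the subunits were high or low for these short genes, at a smaller size. The subunits have a median transcript length of 749.5 nt, against 2366 nt for all genes tested. Of the short genes outside the family, 143 rose and 33 fell with shLMO2-2 (7.43% and 1.71%, against 4.94% and 4.04% of all genes), with a median log2 fold change of 0.12. With shLMO2-1, 59 rose and 41 fell (3.06% and 2.13%, against 4.54% and 3.88% of all genes), both shares below those of all genes, with a median of 0.07. Among the 39 subunits with the shorter transcripts 9 rose with shLMO2-2, and among the 39 longer ones 5 rose and NDUFS1 fell. Spearman's rho between log2 fold change and length was -0.35 over the 78 subunits with shLMO2-2 and -0.26 with shLMO2-1, against -0.19 and -0.06 over all genes. With GC content it was 0.23 and 0.25 over the subunits, against 0.28 and 0.26 over all genes. These are descriptions across genes that share libraries. With each library's trends in length and GC content removed, an alternative chosen after seeing the data, the median of the 78 subunits was 0.00 with shLMO2-1 and 0.09 with shLMO2-2. With these trends removed, 7 nuclear subunits rose and 2 fell with shLMO2-2, and 2 rose and 2 fell with shLMO2-1. COX6C (0.56 ± 0.07, adjusted p = 0.000922), ATP5MPL, ATP5F1E, ATP5ME, NDUFA4, NDUFB1, NDUFS6 and NDUFS1 (-0.29 ± 0.07, adjusted p = 0.0304) were called with shLMO2-2 both with and without the trends, and SDHC was called lower only with them removed. ATP5MC2, ATP5MF, NDUFA3, NDUFA13, NDUFB2, NDUFS4 and UQCRB did not pass with shLMO2-2 once the trends were removed.

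**Figure D3:**
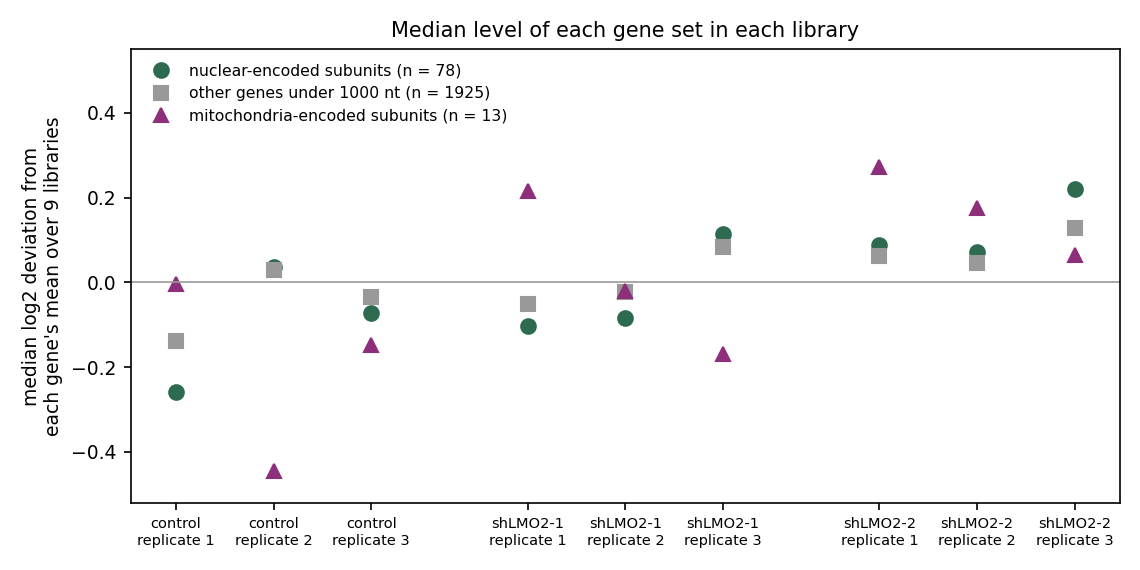
Median log2 deviation (y axis) from each gene's mean over 9 libraries, for 3 gene sets, by library (x axis). Nuclear subunits and other short genes move together from library to library, both lowest in control replicate 1 (-0.26 and -0.14) and highest in shLMO2-2 replicate 3 (0.22 and 0.13), while the mitochondria-encoded subunits follow another order.

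**Figure D4:**
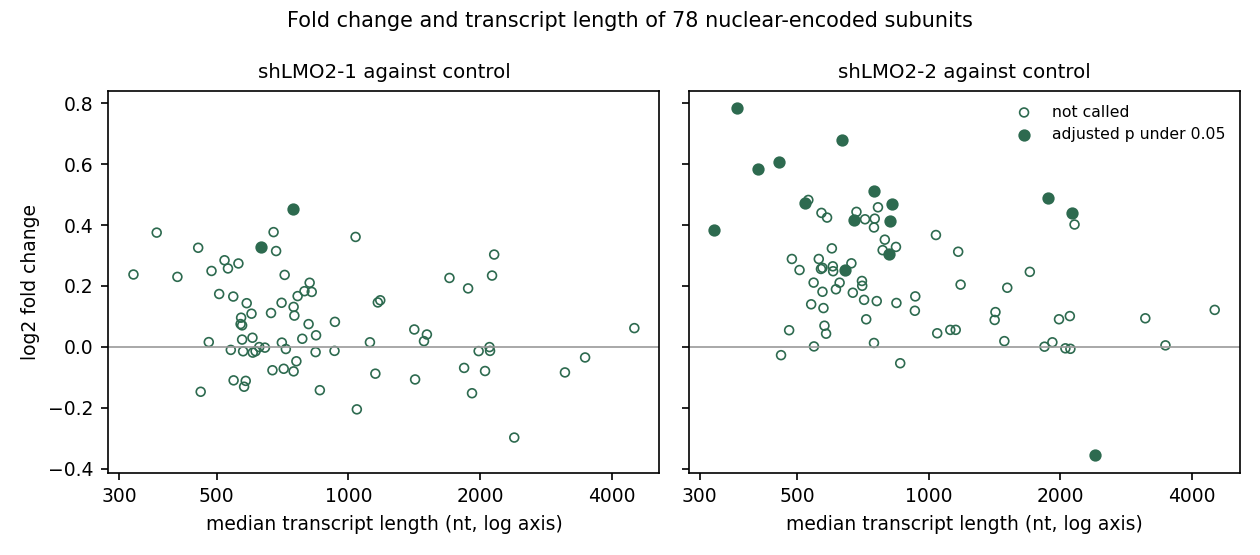
Log2 fold change (y axis) of the 78 nuclear-encoded subunits against median transcript length (x axis, log scale), one point per gene, with filled points at an adjusted p under 0.05. With shLMO2-2, 9 subunits called higher have transcripts at or under 749.5 nt, and NDUFS1, called lower, has 2394 nt.

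The promoters of the subunits that moved were compared with those of the rest, because nuclear respiratory genes are known for shared factors, among them NRF1 and the ETS factor GABP. RefSeq promoter windows (GRCh38.p14, 250 bases before to 50 after the start, 300 bases each) were found for 69 of the 86 nuclear members, 81 windows in all. The core motif of NRF1, searched on both strands like the others, was in 21.0% of these windows and in 5.78% of all 35116 windows. The ETS core CCGGAAG was in 27.2% against 10.3%, the YY1 core motif in 4.94% against 0.849%, and the TATA box TATAAA in 8.64% against 11.5%. Of the 7 genes with a window that passed in the mean of both hairpins, 2 held the NRF1 motif, 2 the ETS motif and 1 the YY1 motif. Of the 58 tested genes with a window that did not pass, 14, 19 and 3 did. A match of letters is a description and not a measured site. The 4 windows with a match among the genes that passed are shown 5′ to 3′ on the strand of the gene, with the matching letters in capitals. They lie at chr4:674227-674526 (minus strand) for ATP5ME, chr14:103921480-103921779 (minus) for ATP5MPL (ATP5MJ in RefSeq), chr5:53560389-53560688 (plus) for NDUFS4 and chr2:206159395-206159694 (minus) for NDUFS1, each across a RefSeq transcript start, from upstream sequence into the first exon.
ATP5ME: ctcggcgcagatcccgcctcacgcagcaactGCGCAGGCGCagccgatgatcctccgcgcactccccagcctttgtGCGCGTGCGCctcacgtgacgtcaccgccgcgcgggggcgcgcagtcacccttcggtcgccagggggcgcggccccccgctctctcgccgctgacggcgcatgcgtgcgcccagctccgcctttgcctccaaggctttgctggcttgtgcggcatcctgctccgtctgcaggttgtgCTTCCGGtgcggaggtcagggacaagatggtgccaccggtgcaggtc
ATP5MPL: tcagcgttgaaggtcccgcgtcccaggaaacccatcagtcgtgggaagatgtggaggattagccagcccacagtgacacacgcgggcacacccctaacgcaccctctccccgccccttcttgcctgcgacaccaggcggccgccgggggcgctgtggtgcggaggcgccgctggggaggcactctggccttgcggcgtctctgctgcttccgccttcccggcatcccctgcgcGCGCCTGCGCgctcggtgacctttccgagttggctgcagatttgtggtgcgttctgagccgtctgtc
NDUFS4: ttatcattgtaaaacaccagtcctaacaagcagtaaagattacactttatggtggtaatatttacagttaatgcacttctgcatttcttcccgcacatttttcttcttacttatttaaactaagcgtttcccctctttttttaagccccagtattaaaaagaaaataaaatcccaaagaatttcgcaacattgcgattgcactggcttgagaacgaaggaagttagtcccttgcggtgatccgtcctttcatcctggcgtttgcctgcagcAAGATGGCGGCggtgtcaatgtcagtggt
NDUFS1: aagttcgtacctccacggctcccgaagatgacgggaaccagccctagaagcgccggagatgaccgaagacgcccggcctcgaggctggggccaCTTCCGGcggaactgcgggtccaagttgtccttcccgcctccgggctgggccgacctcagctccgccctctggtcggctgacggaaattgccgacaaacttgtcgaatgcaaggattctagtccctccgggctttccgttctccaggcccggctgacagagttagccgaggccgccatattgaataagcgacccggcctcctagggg
The ATP5ME window holds the NRF1 motif 2 times and the ETS motif once, ATP5MPL holds the NRF1 motif near its start, NDUFS4 holds the YY1 motif in the transcribed end of the window, and NDUFS1, the gene that fell, holds the ETS motif.

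The 13 mitochondria-encoded subunits are cut from long transcripts of the organelle's own DNA, so their levels share a source. Together they took 1.26%, 0.942% and 1.13% of all counts in the controls, 1.4%, 1.19% and 1.09% with shLMO2-1 and 1.44%, 1.30% and 1.2% with shLMO2-2. The hairpin libraries overlapped the controls, and control replicate 2 was the lowest of the 9. The ribosomal RNAs of the same genome moved the other way: they took 0.389% to 0.413% of counts in the controls and 0.318% to 0.358% in the 6 hairpin libraries, with no overlap. Of these 13 genes, 4 rose with shLMO2-2 and 2 with shLMO2-1, MT-ATP8 and MT-CO3, which were also among the 4. Over all genes 8.97% passed with shLMO2-2 and 8.42% with shLMO2-1. None of the 13 fell. Those that passed with shLMO2-2 and in the mean of both hairpins were MT-CO2, MT-CO3, MT-ATP6 and MT-ATP8, subunits of complexes IV and V encoded next to each other. The median log2 fold change of the 13 genes was 0.22 with shLMO2-1 and 0.34 with shLMO2-2, and 11 and 13 estimates were positive. Leaving out 1 library each moved the shLMO2-1 median between 0.06 (without shLMO2-1 replicate 1) and 0.34 (without control replicate 1), with 0.09 in the absence of control replicate 2, and the shLMO2-2 median between 0.26 and 0.40. The number of calls moved with single libraries: with shLMO2-2 it was 7 without control replicate 1, and 2 when replicate 3 of the controls, replicate 2 or 3 of shLMO2-1 or any of the shLMO2-2 libraries was left out. With shLMO2-1 it was 4 without control replicate 1 and 0 without any of the other 8. The mean count of 4 became 2 when replicate 2 or 3 of the controls, replicate 2 of shLMO2-1, or replicate 1 or 2 of shLMO2-2 was left out. In each of these fits that gave 2 or 0, fewer genes of all tested passed as well.

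MT-ATP8, a short membrane subunit of the ATP synthase, showed the widest difference. It had 14.8, 9.84 and 12.1 CPM in the controls, 21.5, 17.9 and 16.7 CPM with shLMO2-1 and 23, 27.9 and 24.1 CPM with shLMO2-2, so the 3 groups did not overlap. The log2 fold change was 0.61 ± 0.16 (adjusted p = 0.0357) and 1.03 ± 0.15 (adjusted p = 0.0029). The shLMO2-2 call held in all 20 alternatives, and with length and GC trends removed it was 0.69 ± 0.15. MT-ATP8 and MT-ATP6 sit on the same molecule with overlapping reading frames (positions 8366 to 8572 and 8527 to 9207 of the mitochondrial chromosome in GENCODE 29), and MT-ATP8 counts were 5.87% to 10.2% of those of MT-ATP6. MT-ATP6, the proton channel subunit, had 223, 154 and 206 CPM in the controls, 291, 223 and 232 CPM with shLMO2-1 and 314, 272 and 251 CPM with shLMO2-2. Only shLMO2-2 was clear of the controls (0.52 ± 0.14, adjusted p = 0.0466), and shLMO2-1 overlapped the highest control (0.35 ± 0.14, adjusted p = 0.156). With the trends removed MT-ATP6 did not pass with shLMO2-2 (adjusted p = 0.129), and MT-ATP8 did not pass with shLMO2-1 (adjusted p = 0.058). The nuclear pseudogene MTATP6P1, whose sequence comes from the same stretch of mitochondrial DNA, rose as well, from 10.6, 9.66 and 9.66 CPM to 18.9, 15.2 and 16.2 CPM and to 23.3, 25.6 and 21.4 CPM. The division of reads between these 3 rows is uncertain. With the counts of its copies added, MT-ATP6 kept its call with shLMO2-2.

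The 3 mitochondria-encoded subunits of complex IV form its catalytic core. MT-CO3 had 1605, 1361 and 1555 CPM in the controls, 1787, 1783 and 1712 CPM with shLMO2-1 and 1985, 1922 and 1904 CPM with shLMO2-2. The groups were fully separated, at 0.22 ± 0.06 (adjusted p = 0.0452) and 0.36 ± 0.06 (adjusted p = 0.00564). With length and GC trends removed neither call held (adjusted p = 0.14 and 0.058), while that of the mean did (0.23 ± 0.07, adjusted p = 0.0462). MT-CO2, which receives electrons from cytochrome c, had 1682, 1338 and 1600 CPM, then 2061, 1797 and 1778 CPM, then 2143, 1862 and 1858 CPM. All hairpin libraries were above the controls, and it passed with shLMO2-2 (0.34 ± 0.09, adjusted p = 0.0424) and not with shLMO2-1 (0.29 ± 0.09, adjusted p = 0.082). Its shLMO2-2 call was lost with the trends removed (adjusted p = 0.242). MT-CO1, which holds the oxygen-binding site and was the most abundant per length, had 4629, 3655 and 4381 CPM, then 5179, 4569 and 4111 CPM, then 5292, 4771 and 4557 CPM. Both hairpin groups overlapped the controls, and neither hairpin passed (0.13 ± 0.10 and 0.21 ± 0.10).

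In the main edgeR fit no mitochondria-encoded subunit of complex I passed in any comparison. With shLMO2-2, 4 of 7 had an unadjusted p under 0.05, and DESeq2 then called MT-ND2 and MT-ND4L. With no filter on low counts, edgeR called MT-ND4L with shLMO2-1. Without the filter, or with the replicate block, more of the 13 genes passed in edgeR with shLMO2-2, complex I subunits among them. MT-ND2 had 425, 338 and 396 CPM in the controls and 515, 497 and 449 CPM with shLMO2-2, with no overlap (0.33 ± 0.11, adjusted p = 0.079). MT-ND4L, which shares a molecule with MT-ND4, had 317, 186 and 219 CPM and 336, 348 and 305 CPM, with overlap (0.45 ± 0.17, adjusted p = 0.114). In the remaining genes the shLMO2-2 estimates were 0.22 for MT-ND1, 0.19 for MT-ND3, 0.27 for MT-ND4, 0.31 for MT-ND5 and 0.41 for MT-ND6. With shLMO2-1, MT-ND1 and MT-ND3 had -0.06 each, the only negative estimates among the 13. MT-CYB, the haem-carrying subunit of complex III, had 478, 347 and 418 CPM in the controls, 595, 454 and 414 CPM with shLMO2-1 and 612, 556 and 500.3 CPM with shLMO2-2. It did not pass in the main edgeR fit (0.43 ± 0.14, adjusted p = 0.0888 with shLMO2-2), although DESeq2 called it. Between the hairpins none of the 13 passed in the main edgeR fit or with limma-voom or DESeq2, and 3 had an unadjusted p under 0.05. All 13 estimates were higher with shLMO2-2, with a median of 0.17.

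**Figure D5:**
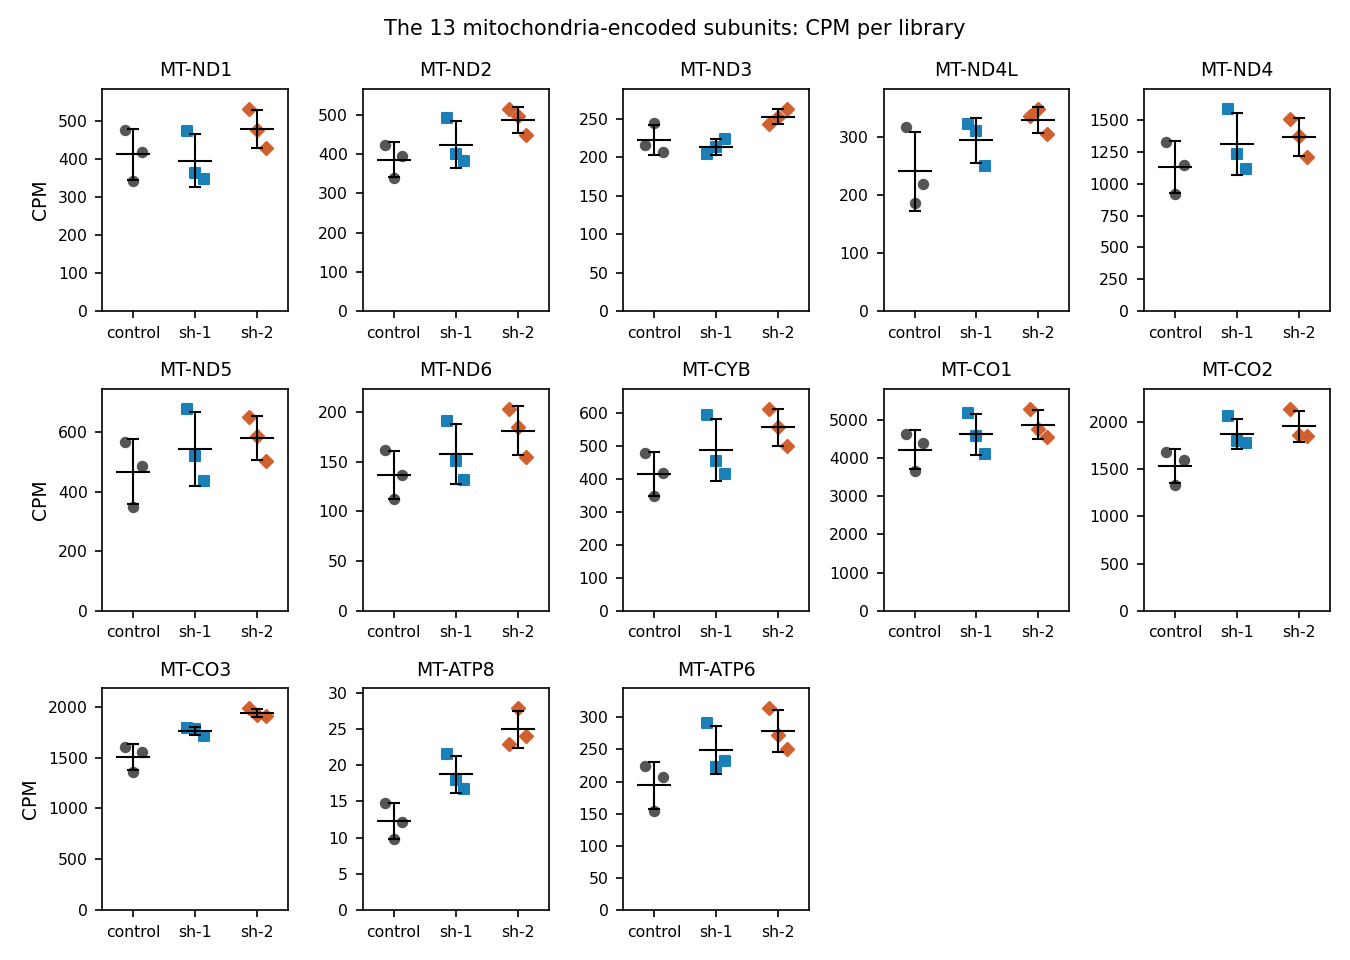
CPM (y axis, from 0) of the 13 mitochondria-encoded subunits by group (x axis; sh-1 and sh-2 are the hairpins), one point per library, with mean and SD of 3 libraries. MT-ATP8 and MT-CO3 show 3 separate groups, and for most MT-ND genes the hairpin libraries overlap the controls, of which replicate 2 is the lowest except for MT-ND3.

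Within the mitochondrial genome the level per length fell in steps. On the CPM per kilobase scale the controls had 2738 ± 328 for MT-CO1, 2251 ± 263 for MT-CO2 and 1922 ± 164 for MT-CO3, whose neighbouring ranges of mean ± SD overlapped. A gap between such ranges followed before MT-ND4 (820.2 ± 148), MT-ND4L (810.2 ± 230.0) and MT-ND3 (643 ± 55.9). Another gap led to MT-ND1 (432 ± 70.9), MT-ND2 (371 ± 42.2), MT-CYB (363 ± 57.6), MT-ATP6 (286 ± 53.6), MT-ND6 (261 ± 46.3) and MT-ND5 (258 ± 60.8), whose neighbouring ranges overlapped, and MT-ATP8 was lowest after a further gap at 59.2 ± 12.1. MT-ND6 is the only protein gene on the light strand, and it followed MT-ND5, its neighbour on the opposite strand, at 28.2% to 32.4% of the MT-ND5 level in CPM in all 9 libraries. The labels name a library kit without a directional step, and whether the counting used strand is not given in the sources used here, so reads of MT-ND6 and reads antisense to it cannot be told apart.

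The mitochondrial and nuclear subunits did not move together from library to library. Over the 9 libraries their medians had r = 0.03. With group means taken out r was -0.89, so within groups they ran in opposite directions. For the mitochondrial medians against those of the other short genes it was -0.91. The median deviation of the 13 mitochondrial genes was -0.00, -0.45 and -0.15 in the controls, 0.21, -0.02 and -0.17 with shLMO2-1, and 0.27, 0.18 and 0.07 with shLMO2-2. In the controls and with shLMO2-1 the library that was lowest for the nuclear subunits was the highest for the mitochondrial ones: control replicate 1 had -0.26 and -0.00, while control replicate 2 had 0.04 and -0.45. The ratio of mitochondrial to nuclear subunit counts was 1.63, 1.03 and 1.34 in the controls, 1.72, 1.47 and 1.2 with shLMO2-1 and 1.58, 1.47 and 1.23 with shLMO2-2. It overlapped between all groups, and its range within the controls was wider than the distance between the groups.

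Of the 56 pseudogene rows, 52 had no count in any library, and UQCRFS1P1 alone was tested. It had 4.72, 8.4 and 6.38 CPM in the controls, 7.17, 10.2 and 8.98 CPM with shLMO2-1 and 10.7, 14 and 16.8 CPM with shLMO2-2, and passed with shLMO2-2 (1.08 ± 0.23, adjusted p = 0.0161). Its parent UQCRFS1, the Rieske iron-sulphur protein of complex III, did not pass, at 0.00 with shLMO2-2, and carried most of the reads, so the copy held 2.87% to 8.20% of its level. How reads were divided between the 2 rows is not known.

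Genes that build and run the chain were read from lists of related genes. Of 16 tested further subunits and electron carriers outside the symbol rule, 1 passed in the mean of both hairpins: COQ4, which takes part in making coenzyme Q (0.33 ± 0.08, adjusted p = 0.0276). Of 51 assembly factors, 3 rose and 4 fell, where 12.4% of all genes passed. COX16 (0.53 ± 0.08, adjusted p = 0.00162) and the copper chaperone COX17 (0.43 ± 0.08, adjusted p = 0.00859), which serve complex IV assembly, rose. NDUFAF7 (-0.49 ± 0.07, adjusted p = 0.00193) and NDUFAF4 (-0.41 ± 0.09, adjusted p = 0.0178), which serve complex I assembly, fell. SDHAF3, which helps SDHB mature, fell from 3.54, 3.28 and 4.55 CPM in the controls to 1.18, 0.938 and 1.12 CPM with shLMO2-1 and 1.87, 2.23 and 1.30 CPM with shLMO2-2 (-1.44 ± 0.22, adjusted p = 0.00243), with no overlap, while SDHB itself did not pass.

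Of 28 tested genes for mitochondrial DNA copying and transcription, 2 rose and 5 fell in the mean of both hairpins (7.14% and 17.9%, against 6.47% and 5.93% of all genes), with a list median of -0.16 against 0.00 over all genes. SLIRP, which binds and stabilises mitochondrial messenger RNA, rose from 13.3, 13.4 and 13.7 CPM to 19.5, 23.2 and 23.1 CPM with shLMO2-1 and 23.7, 26.6 and 32.0 CPM with shLMO2-2 (0.86 ± 0.11, adjusted p = 0.000878). Its partner LRPPRC, kept in the assembly list, fell from 405, 379.8 and 385 CPM to 334, 334 and 315 CPM and to 343, 332 and 333 CPM (-0.23 ± 0.05, adjusted p = 0.009). Neither gene had a hairpin library within the range of the controls. TFB2M, the transcription initiation factor of mitochondrial DNA, fell (-0.49 ± 0.06, adjusted p = 0.00112), as did the RNA-binding FASTKD2 (-0.33 ± 0.07, adjusted p = 0.0122) and the RNA decay partners SUPV3L1 (-0.26 ± 0.06, adjusted p = 0.0141) and PNPT1 (-0.28 ± 0.07, adjusted p = 0.0234), while FASTK rose (0.42 ± 0.10, adjusted p = 0.0189). The mitochondria-encoded messages themselves had a median of 0.29 in the same comparison.

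Of 78 mitochondrial ribosomal proteins, 3 rose (MRPL48, MRPL23 and MRPL11, at 0.48, 0.51 and 0.36) and MRPS10 fell (-0.33), a share below that of all genes. Of 21 tricarboxylic acid cycle genes, SUCLG1, a subunit of succinyl-CoA ligase, rose by 0.51 ± 0.09 (adjusted p = 0.00524) and DLST by 0.19 ± 0.05 (adjusted p = 0.0374) on the log2 scale, which is 9.52% of the list against 12.4% of all genes. Of 10 tested regulators of mitochondrial biogenesis 2 passed (20%, against 12.4% of all genes). ESRRA, an orphan nuclear receptor, rose (0.37 ± 0.07, adjusted p = 0.00969) and GABPA, the DNA-binding part of GABP, fell (-0.29 ± 0.06, adjusted p = 0.0149). GABPA overlaps the complex V gene ATP5PF, and its reads there are uncertain. The other 8 did not pass in the mean of both hairpins: PPARGC1B had -0.12, PPRC1 -0.15, NRF1 -0.08, GABPB1 -0.29, GABPB2 0.14, YY1 0.12, MYC 0.11 and HIF1A 0.09.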

How the data were processed

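RNA of 9 libraries, 3 each for empty pSicoR, shLMO2-1 and shLMO2-2, was deposited by the authors as 1 table of estimated counts per gene symbol. Salmon 0.12, DESeq2 1.22.2 and GRCh38.p12 are named, per the submitters' processing notes, with no role given. The use of strand is not given in the sources used here. Estimated counts divide reads among similar genes, and 61 members overlap another gene, so copies and overlapping genes are uncertain.

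Counts were rounded and tested in edgeR 4.0.16 (R 4.3.3) with TMM scaling, filterByExpr (minimum count 10, minimum total 15) with LMO2 added back, a quasi-likelihood fit of 3 groups, and Benjamini-Hochberg adjustment over 14709 genes that held 99.9% of the counts. Standard errors come from the log2 fold change and its F statistic. Transcript lengths are medians over basic protein-coding transcripts of GENCODE release 29, by symbol. The fitting script was tested on simulated data. No table column was left out. Members, gene lists and tests were chosen with earlier results of these data known. Named were all mitochondria-encoded subunits, the SDH genes, ATP5IF1, the COX isoform pairs, up to 8 members higher and 8 lower in the mean of both hairpins, members differing between hairpins, the 5 highest and 5 lowest per length, and of each other list up to 6 genes by smallest p, with all tested regulators. Further members were named after their values were seen: those called with shLMO2-2 alone, the catalytic and core proteins beside them, NDUFA3 and the COX7A2 value, UQCRFS1P1 and its parent, and MTATP6P1. Alternatives were limma-voom 3.58.1, DESeq2 1.42.0, other scalings and filters, a replicate block and leaving out each library.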

Additional observations from a re-analysis of the deposited data

How the results depend on the processing

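Among nuclear subunits, the number called with shLMO2-1 (2) was 6 with no filter on low counts, 4 with DESeq2, 0 with only the compared groups fitted and 4 with length and GC trends removed. With shLMO2-2 (15) it was 32 with no filter, 23 with DESeq2 and 9 with trends removed. In the mean of both hairpins (8) it was 26 with no filter and 17 with DESeq2, and between hairpins (0) it was 2 with no filter, and 1 with DESeq2 and with only the compared groups. Leaving out 1 library each gave 0 to 2, 2 to 17, 4 to 16 and 0 to 1 in the same order. Calls over all genes moved as well. With shLMO2-2, 977 genes were higher and 860 lower with DESeq2, and 1133 and 762 with no filter, against 726 and 594. With trends removed they were 766 and 688. In the mean they were 1227 and 1146 with DESeq2, and 1324 and 1052 with no filter, against 951 and 872.

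Among mitochondrial subunits, shLMO2-1 (2) gave 5 with no filter, 3 with DESeq2, 1 with limma-voom and with a minimum of 10 counts per library, and 0 with total counts only, with only the compared groups and with trends removed. shLMO2-2 (4) gave 11 with no filter, 7 with DESeq2, 2 with total counts only and with only the compared groups, and 1 with trends removed. The mean (4) gave 11 with no filter, and 2 with total counts only and with trends removed. Between hairpins (0) no filter gave 1. Leaving out 1 library each gave 0 to 4, 2 to 7, 2 to 5 and 0. The cause was not tested.

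Replicate numbers were shared by the groups. Libraries numbered 1 deviated together (r from 0.23 to 0.30), as did those numbered 3 (0.14 to 0.21), while those numbered 2 did not (-0.06 to 0.05). Between libraries of different number r ran from -0.31 to 0.18. With the replicate block, nuclear calls were 7, 34, 25 and 1 and mitochondrial calls 4, 10, 9 and 0. Calls over all genes rose too: 1206 were then higher and 1008 lower with shLMO2-1, and 1301 and 1076 with shLMO2-2. In the mean they were 1590 and 1434, and between hairpins 115 and 142, against 51 and 62. Without TMM, 561 genes of all tested were higher and 781 lower with shLMO2-1, against 668 and 571; the splits were 568 and 833 with shLMO2-2, against 726 and 594, and 793 and 1284 in the mean, against 951 and 872. No subunit called in a comparison with control reversed its direction in these alternatives. Single genes of the other lists and the pseudogenes were not followed through them. The number called per list moved: in the mean, DESeq2 called 9 mitochondrial ribosomal proteins rather than 4, and 9 assembly factors rather than 7. It called 4 tricarboxylic acid cycle genes rather than 2, 8 genes for mitochondrial DNA copying and transcription rather than 7, and 2 further subunits and carriers rather than 1. The regulators stayed at 2. Depth limits the 8 untested subunits.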
